A study of Rattus norvegicus with 47 samples.

Results

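Transcripts of 10 pericyte and smooth muscle genes were followed in rat kidneys that had carried metal pellets for 12 months. The genes were Rgs5, Pdgfrb, Acta2, Tagln, Myh11, Cnn1, Des, Myl9, Eln and Speg, chosen by symbol from the 22525 genes of the count table, and all 10 were among the 15868 that passed the filter on low counts. Kidneys came from rats randomly given pellets of lead (Pb), cobalt (Co), tungsten (W), aluminum (Al) or depleted uranium (DU), or pellets of tantalum (Ta), which the series description treats as the inert comparator. Every pellet was a cylinder 1 mm across and 2 mm long, and the Ta rats carried a pellet too. There were 7 Pb libraries and 8 of each other metal, 1 per animal, and animal numbers ran in separate blocks by metal, so anything that went with the number cannot be told apart from the metal. Strain, sex, age and implant site are not given in the sources used here.

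Pericytes wrap the small vessels of the kidney and smooth muscle cells form the wall of its arteries and arterioles. Pericytes are recruited and kept in place by PDGF-B from endothelial cells, which acts on the receptor encoded by Pdgfrb, and mesangial cells of the glomerulus depend on the same receptor. Smooth muscle contracts when myosin built from the Myh11 heavy chain and light chains such as Myl9 pulls on actin filaments, of which the Acta2 product is the smooth muscle form. Many contractile genes are switched on by serum response factor (SRF) with its partner myocardin through a DNA motif called the CArG box, and MEF2 factors bind an A-rich motif in other muscle genes. Acta2 and other contractile genes are also expressed by activated fibroblasts, so the list marks a family of contractile and vessel-wall cells rather than 1 cell type.

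Promoter sequences from RefSeq (build GRCr8) were matched for 5 of the 10 genes, namely Rgs5, Acta2, Cnn1, Des and Speg. The others were Pdgfrb, Tagln, Myh11, Myl9 and Eln. The 150 bases that end just before the annotated start are shown for the pair of genes that held a searched muscle motif and for Rgs5, which had the lowest level relative to Ta of all 10 in Pb kidneys and held neither. Capitals mark 2 CArG boxes in Acta2 (chr1:241172504-241172653, minus strand) and a MEF2 motif in Speg (chr9:84314237-84314386, plus strand), while Rgs5 (chr13:84380927-84381076, plus strand) has no capitals. Each is written 5′ to 3′ on the strand of its gene.
Acta2: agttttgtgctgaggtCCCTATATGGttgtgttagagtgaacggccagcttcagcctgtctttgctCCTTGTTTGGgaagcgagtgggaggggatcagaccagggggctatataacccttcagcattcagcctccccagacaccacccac
Speg: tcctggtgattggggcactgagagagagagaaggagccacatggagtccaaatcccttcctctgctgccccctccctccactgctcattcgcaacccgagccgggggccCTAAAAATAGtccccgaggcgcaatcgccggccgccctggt
Rgs5: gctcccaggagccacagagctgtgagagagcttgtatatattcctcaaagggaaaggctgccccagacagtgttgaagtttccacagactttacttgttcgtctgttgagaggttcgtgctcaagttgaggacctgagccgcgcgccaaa

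The CArG box was searched on both strands over 250 bases before the start, allowing 1 G or C among its 6 inner bases. Acta2 had 2 such boxes that do not overlap, CCCTATATGG and, starting 84 bases before the gene start, CCTTGTTTGG. Such a box was present in 8.08% of the 33469 promoters, and a strict one with only A or T inside in 1.5%. The MEF2 motif, with any A or T at its 4 inner bases and likewise searched on both strands, occurred as CTAAAAATAG starting 41 bases before the Speg start, and it was found in 175 promoters (0.523%). A second RefSeq start of Speg, farther along the gene, had no such motif in its window. A match was found by its letters alone and does not show that a factor binds there. Its absence from this window says nothing about the factor. The reads were aligned to another build, mRatBN7.2, so these coordinates belong to the sequences alone.

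Values are gene counts, given as CPM, each count scaled to a common library size after TMM, a factor that corrects for library composition. Library totals ran from 21604755 to 35775818 counts (median 26363810). The lowest-counted of the genes was Cnn1, with 0 to 205 counts per library (median 53), and the most counted was Tagln, with 248 to 4458. These counts are not divided by gene length, so levels are compared between groups and not between genes. In bulk kidney RNA, fewer cells of a type and less RNA per cell cannot be told apart. Fold changes, their standard errors (SE) and adjusted p-values come from edgeR's quasi-likelihood test in 1 fit over all 47 libraries, with Benjamini-Hochberg adjustment over all 15868 genes, and a gene was called at an adjusted p below 0.05. Separate animals are 1 library each, so the spread is that between animals.

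Kidneys with Pb, Co, Al and W pellets had lower levels of these genes than Ta kidneys, and none of the 10 was called in DU kidneys. In Pb kidneys 10 of the 10 genes fell, where 29.2% of all tested genes fell. In Co kidneys 9 of 10 fell, all but Cnn1, against 12.2% of all genes, and in Al kidneys 8 of 10, all but Cnn1 and Eln, against 12.4%. In W kidneys 4 of 10 fell (Acta2, Tagln, Eln and Speg), against 0.366% of all genes. In DU kidneys edgeR called 0 of 10, where 7.39% of all genes fell, and Myh11 alone had an unadjusted p below 0.05. None of the 10 rose under any metal, while 1.42% of all genes rose in W, 13.6% in Co, 12.8% in Al kidneys, 24.5% in Pb and 7.89% in DU kidneys.

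The median log2 fold change of the 10 genes was -1.57 for Pb, -1.07 for Co, -1.01 for Al, -0.93 for W and -0.11 for DU, while that of all tested genes was between -0.07 and -0.01. All 10 fold changes were negative for Pb, Co, Al and W, and 6 of 10 for DU. Counted by library, 9 of the 10 genes were lower in every Pb kidney than in any Ta kidney, at a background of 13.9%, with Cnn1 in Pb replicate 3 as the exception. The same held for 2 genes in W kidneys, Acta2 and Speg (0.170% of all genes), and for 0 in Co (0.567%), Al (1.40%) and DU (0.700%). These comparisons share the Ta kidneys. A joint test for any difference among the 6 groups called 9 of the 10 genes, Cnn1 being the exception (adjusted p = 0.0644 by edgeR), with 58.4% of all genes called. Tagln had the smallest p in that test (adjusted p = 5.42e-07).

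**Figure D1:**
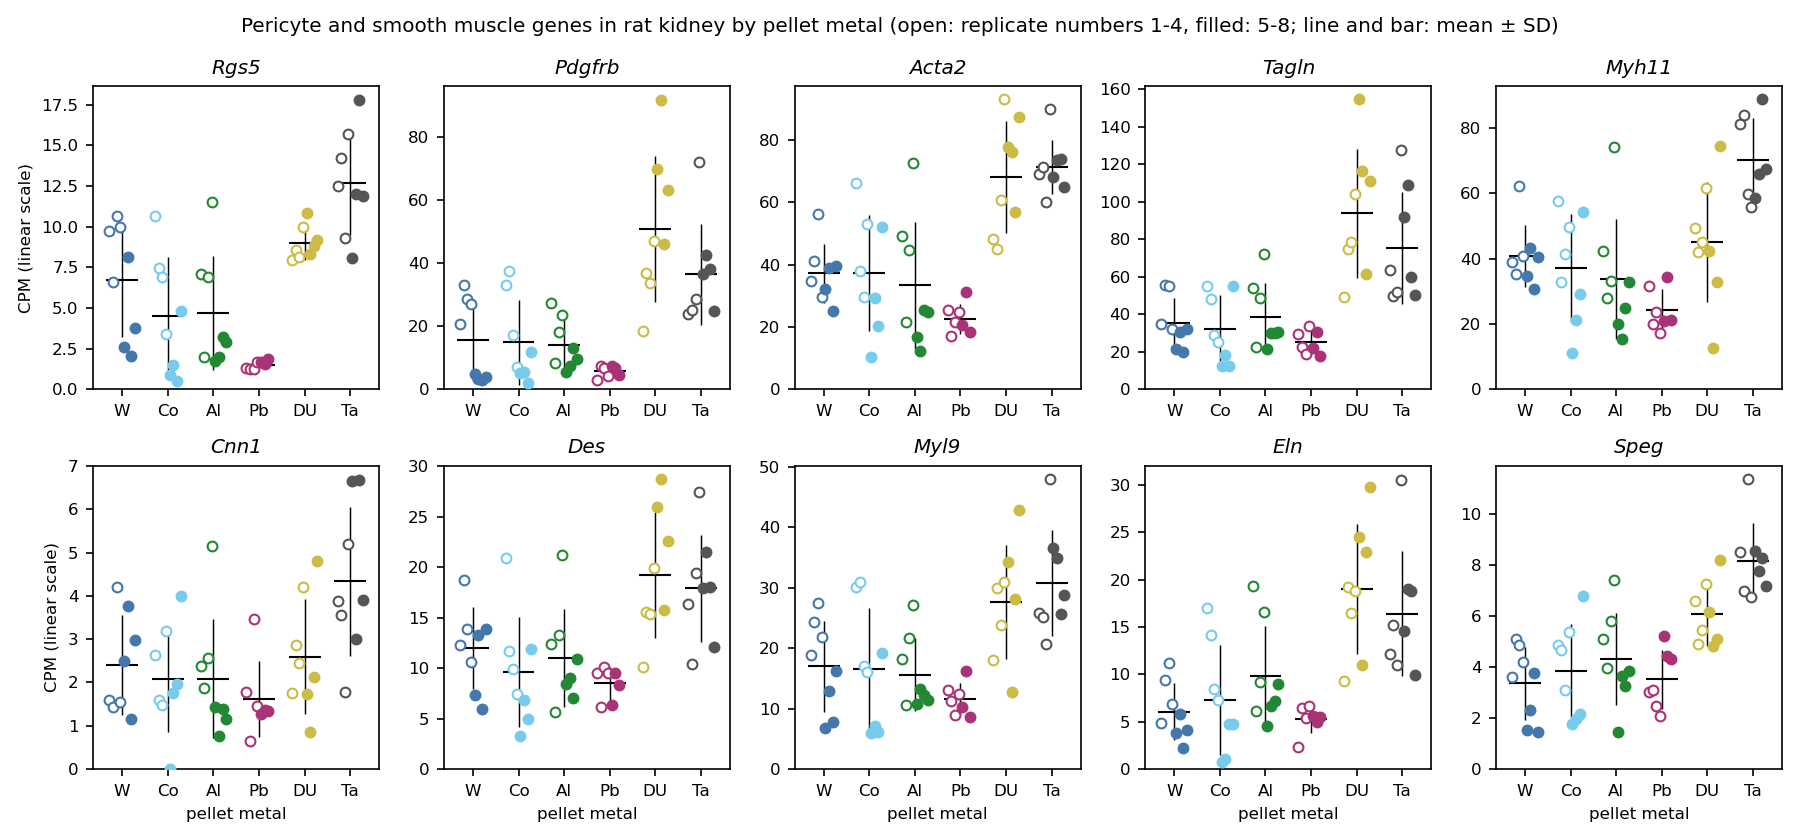
CPM of each of the 10 genes on a linear scale, 1 point per kidney, by pellet metal, with open points for replicate numbers 1 to 4, filled points for 5 to 8, and a line and bar for the mean ± SD (n = 8, or 7 for Pb). Pb kidneys form a tight low cluster in most panels, DU kidneys overlap Ta in every panel, and W, Co and Al kidneys are widely spread, though all W kidneys lie under all Ta kidneys for Acta2 and Speg, with Rgs5 between 0.490 and 10.6 CPM in Co kidneys.

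Rgs5 encodes a regulator that shortens G protein signalling and is widely used to mark pericytes. Its lowest, median and highest levels were 2.05, 7.36 and 10.6 CPM in W kidneys, 0.490, 4.12 and 10.6 CPM in Co kidneys and 1.74, 3.07 and 11.5 CPM in Al kidneys. They were 1.25, 1.55 and 1.87 CPM in Pb kidneys, 7.92, 8.68 and 10.8 CPM in DU kidneys and 8.09, 12.3 and 17.8 CPM in Ta kidneys. The whole Pb group lay under the lowest Ta kidney, and the DU group was the narrowest of the others. Rgs5 fell in Pb kidneys (log2 fold change -3.06, SE 0.45, adjusted p = 1.95e-07 by edgeR), in Co (-1.48, SE 0.40, adjusted p = 0.00556) and in Al (-1.43, SE 0.39, adjusted p = 0.00642). The W value was -0.92 ± 0.39 (SE, adjusted p = 0.166) and the DU value -0.50 ± 0.39 (adjusted p = 0.423).

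Pdgfrb, the PDGF-B receptor, is also carried by mesangial cells. Its lowest, median and highest levels were 2.96, 12.7 and 33.1 CPM in W kidneys, 2.01, 9.33 and 37.5 CPM in Co kidneys, and 5.58, 11.3 and 27.5 CPM in Al kidneys. Pb kidneys had 2.81, 6.68 and 7.44 CPM, DU kidneys 18.3, 46.5 and 91.6 CPM, and Ta kidneys 23.7, 32.6 and 72.0 CPM. DU kidneys reached above every Ta kidney in 1 library and below every Ta kidney in another, whereas Pb kidneys stayed far under both groups. Pdgfrb fell in Pb kidneys (log2 -2.67, SE 0.52, adjusted p = 2.97e-05 by edgeR), in Al (-1.36, SE 0.47, adjusted p = 0.0283) and in Co (-1.29, SE 0.47, adjusted p = 0.0373). In W kidneys the value was -1.23 ± 0.47 (SE, adjusted p = 0.126) and in DU kidneys 0.48 ± 0.46 (adjusted p = 0.533). Ta replicate 4 carried the 72.0 CPM, and without it the Co and Al calls were lost (-1.03, adjusted p = 0.109, and -1.12, adjusted p = 0.0803). Other libraries mattered too, since the Co call was lost in 8 and the Al call in 5 of the 16 fits that left out 1 library.

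Acta2 encodes smooth muscle actin, the main filament of the contractile machinery. Its lowest, median and highest levels were 24.9, 36.8 and 56.0 CPM in W kidneys, 10.2, 33.8 and 65.99 CPM in Co kidneys, and 12.2, 25.0 and 72.4 CPM in Al kidneys. They were 17.0, 21.5 and 31.1 CPM in Pb kidneys and 44.9, 68.3 and 93.1 CPM in DU kidneys, with 60.0, 70.2 and 89.7 CPM in Ta kidneys. All W and all Pb kidneys lay under the lowest Ta kidney, and 7 of 8 Co and 7 of 8 Al kidneys did. Acta2 fell in Pb kidneys (log2 -1.65, SE 0.28, adjusted p = 3.21e-06 by edgeR), in Al (-1.10, SE 0.26, adjusted p = 0.00205), in Co (-0.93, SE 0.26, adjusted p = 0.00829) and in W (-0.94, SE 0.26, adjusted p = 0.0495). The DU value was -0.07 ± 0.26 (SE, adjusted p = 0.902). Acta2 is nearly identical in sequence to other actin genes, and how the counting treated reads that fit several genes is not given in the sources used here.

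Tagln encodes transgelin, an actin-binding protein of smooth muscle. It had 20.1, 32.1 and 55.6 CPM (lowest, median, highest) in W kidneys, 12.2, 27.1 and 55.2 CPM in Co kidneys and 21.3, 30.3 and 72.2 CPM in Al kidneys. Pb kidneys had 17.6, 22.5 and 33.9 CPM, DU kidneys 49.3, 91.4 and 155 CPM, and Ta kidneys 49.8, 61.6 and 127.4 CPM. Only the Pb group was free of overlap with Ta, and 7 of 8 DU kidneys lay above the Ta median. Tagln fell in Pb kidneys (log2 -1.59, SE 0.31, adjusted p = 2.81e-05 by edgeR), in Co (-1.24, SE 0.29, adjusted p = 0.00216), in W (-1.10, SE 0.29, adjusted p = 0.0454) and in Al (-0.96, SE 0.29, adjusted p = 0.0128). In DU kidneys it was at 0.32 ± 0.29 (SE, adjusted p = 0.513).

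Myh11, the smooth muscle myosin heavy chain, had 30.7, 39.8 and 62.3 CPM (lowest, median, highest) in W kidneys, 11.0, 37.2 and 57.5 CPM in Co kidneys and 15.4, 30.3 and 74.2 CPM in Al kidneys. Its levels were 17.2, 21.2 and 34.4 CPM in Pb kidneys, 12.5, 43.8 and 74.4 CPM in DU kidneys and 55.8, 66.7 and 88.9 CPM in Ta kidneys. In 6 of 8 DU kidneys Myh11 lay under the lowest Ta kidney, as did Speg. Myh11 fell in Pb kidneys (log2 -1.54, SE 0.28, adjusted p = 1.20e-05 by edgeR), in Al (-1.05, SE 0.27, adjusted p = 0.00337) and in Co (-0.91, SE 0.27, adjusted p = 0.0104). The values were -0.78 ± 0.27 (SE, adjusted p = 0.0942) in W and -0.64 ± 0.27 (adjusted p = 0.0970) in DU kidneys.

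Myl9, a regulatory light chain whose phosphorylation starts contraction, had 6.76 to 27.4 CPM in W kidneys, 6.02 to 30.9 in Co, 10.5 to 27.1 in Al kidneys, 8.58 to 16.2 in Pb, 12.7 to 42.9 in DU and 20.7 to 48.1 in Ta kidneys. It fell in Pb (log2 -1.41, SE 0.31, adjusted p = 0.00015 by edgeR), in Al (-0.97, SE 0.29, adjusted p = 0.0122) and in Co (-0.89, SE 0.29, adjusted p = 0.0216). The W value missed the threshold at -0.85 ± 0.29 (SE, adjusted p = 0.0948), and the DU value was -0.16 ± 0.29 (adjusted p = 0.776). Myl9 also has close relatives among the light chain genes, with the same uncertainty as Acta2.

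Cnn1 encodes calponin, which slows the myosin motor on actin, and it had the fewest counts of the 10 genes. Its levels were 1.15 to 4.21 CPM in W, 0 to 4.004 in Co, 0.760 to 5.15 in Al kidneys, 0.653 to 3.47 in Pb, 0.849 to 4.79 in DU and 1.79 to 6.67 in Ta kidneys, so all groups overlapped Ta. Co replicate 5 had no Cnn1 count, and 3 counts, set as a rough upper bound for a count of 0, would be 0.126 CPM there. It fell in Pb kidneys (log2 -1.42, SE 0.46, adjusted p = 0.0081 by edgeR). Co (-1.06 ± 0.43, adjusted p = 0.0639) and Al (-1.04 ± 0.43, adjusted p = 0.0694) did not reach the threshold, nor did W (-0.85 ± 0.43, adjusted p = 0.238) and DU (-0.74 ± 0.43, adjusted p = 0.261).

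Desmin links the contractile apparatus of muscle to the rest of the cell. Des encodes desmin, the intermediate filament protein of muscle, which pericytes also carry. It had 5.96 to 18.7 CPM in W kidneys, 3.24 to 20.9 in Co, 5.61 to 21.2 in Al kidneys, 6.16 to 10.1 in Pb, 10.1 to 28.7 in DU and 10.4 to 27.4 in Ta kidneys. It fell in Pb (log2 -1.08, SE 0.28, adjusted p = 0.00115 by edgeR), in Co (-0.89, SE 0.27, adjusted p = 0.012) and in Al kidneys (-0.70, SE 0.27, adjusted p = 0.0457), and its change in Pb was the smallest of the 10. The W value was -0.58 ± 0.27 (SE, adjusted p = 0.199) and the DU value 0.10 ± 0.26 (adjusted p = 0.846). The Al call for Des was lost in 12 of the 16 fits that left out 1 library, with an adjusted p up to 0.127 without Ta replicate 4.

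Speg encodes a kinase related to myosin light chain kinase, known from striated muscle and from smooth muscle of the vessel wall. W kidneys had 1.46, 3.69 and 5.11 CPM (lowest, median, highest), Co kidneys 1.77, 3.89 and 6.77, and Al kidneys 1.44, 3.91 and 7.42. Pb kidneys had 2.09, 3.10 and 5.21 CPM, DU kidneys 4.83, 5.79 and 8.20, and Ta kidneys 6.74, 8.01 and 11.4. Of the 10 genes Speg had the smallest p in W kidneys, where it fell (log2 -1.28, SE 0.27, adjusted p = 0.0262 by edgeR), with 8 of 8 W kidneys under every Ta kidney. It fell in Pb (log2 -1.21, SE 0.28, adjusted p = 0.000339), in Co (-1.09, SE 0.27, adjusted p = 0.00329) and in Al (-0.92, SE 0.27, adjusted p = 0.00995). In DU kidneys it was at -0.43 ± 0.27 (adjusted p = 0.293).

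Eln encodes elastin, the stretchable core of the fibres in artery walls. W kidneys had 2.22, 5.33 and 11.2 CPM (lowest, median, highest), Co kidneys 0.800, 6.06 and 17.0 CPM, and Al kidneys 4.51, 8.10 and 19.3 CPM. Pb kidneys had 2.35, 5.51 and 6.62 CPM, DU kidneys 9.28, 19.0 and 29.9 CPM, and Ta kidneys 9.91, 14.9 and 30.6 CPM. In all, 7 of 8 W kidneys and all Pb kidneys lay under the lowest Ta kidney. Eln fell in Pb (log2 -1.63, SE 0.41, adjusted p = 0.000699 by edgeR), in W (-1.44, SE 0.38, adjusted p = 0.0454) and in Co (-1.16, SE 0.38, adjusted p = 0.0214). Al kidneys were at -0.73 ± 0.38 (adjusted p = 0.150) and DU kidneys at 0.21 ± 0.37 (adjusted p = 0.761).

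**Figure D2:**
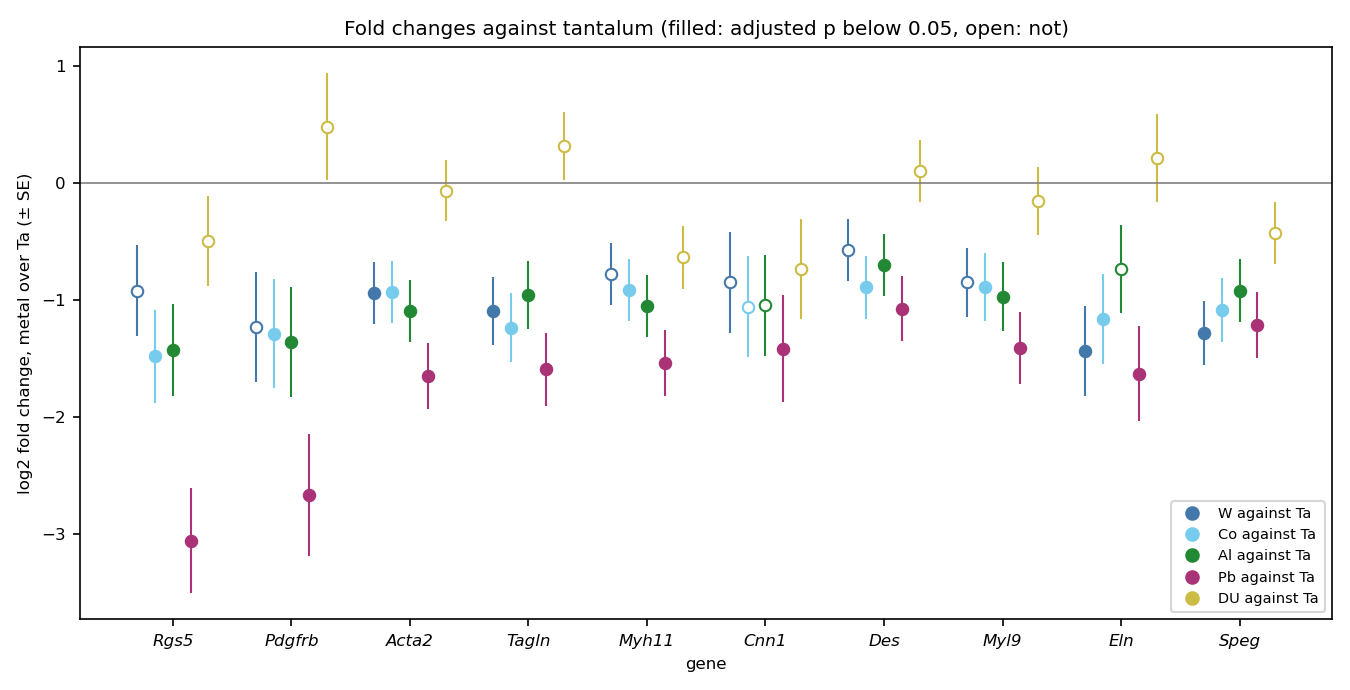
Log2 fold change of each gene for each metal over Ta, with bars of 1 SE, filled where the adjusted p was below 0.05 and open where it was not. Rgs5 (-3.06) and Pdgfrb (-2.67) in Pb kidneys lie far under all other points, the W, Co and Al points of most genes lie close together, and the DU points straddle 0.

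The 4 calls in W kidneys lay near the threshold (adjusted p = 0.0262 to 0.0495 by edgeR) and could be lost when 1 library was left out. Their fold changes stayed negative in those fits, at -1.04 to -0.86 for Acta2, -1.22 to -0.92 for Tagln, -1.62 to -1.22 for Eln and -1.40 to -1.16 for Speg. Leaving out 1 library at a time, the W count ran from 0 to 4 and was 0 without W replicate 5 or W replicate 8. The Acta2 call was lost in 12 of 16 such fits, those of Tagln and Eln in 8 each and that of Speg in 2. The Co count was 6 to 9 and the Al count 6 to 9, both with 6 when Ta replicate 4 was left out, and the Al count was also 6 without Al replicate 2, 5, 6 or 8. In Pb kidneys 10 genes were called in every one of the 15 fits.

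The metals were also set against each other. No gene of the 10 was called between W and Co (0% of all genes called), W and Al (2.68%) or Co and Al (0%). Against Pb, levels were higher for 4 genes in W (Rgs5, Pdgfrb, Acta2 and Myh11, where 21.5% of all genes were higher), 3 in Co (Rgs5, Pdgfrb and Acta2, 14.5%) and 1 in Al (Rgs5, 11.1%). The count of Al was near the share of all genes, and those of W and Co were not far above it. Rgs5 was higher by 2.14 in W (SE 0.44), by 1.57 in Co (SE 0.43) and by 1.63 in Al (SE 0.43) than in Pb kidneys, with adjusted p = 0.000113, 0.00562 and 0.00664 by edgeR. Against DU, levels were lower for 9 genes in Pb (all but Cnn1, where 25.9% of all genes were lower), 5 in W (9.88%), 5 in Co (12.3%) and 4 in Al (5.67%). Pdgfrb, Acta2 and Tagln were in each of these last 3 sets.

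Ordered by mean level, Pb was the lowest group for 9 of the 10 genes, and W was lowest for Speg (3.35 CPM, with Pb at 3.51). Most neighbours in these orders were not separated by the test. The exceptions were Rgs5 in Pb against Co (1.52 ± 0.240 and 4.51 ± 3.62 CPM, SD, n = 7 and 8), Acta2 in Co against DU (37.3 ± 18.7 and 68.0 ± 18.0 CPM, n = 8 each, adjusted p = 0.0138 by edgeR) and Tagln in Al against Ta (38.7 ± 17.9 and 75.4 ± 30.1 CPM, n = 8 each). Ta and DU were the highest 2 groups for all 10 genes, Ta being highest for Rgs5, Acta2, Myh11, Cnn1, Myl9 and Speg and DU for Pdgfrb, Tagln, Des and Eln.

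DU kidneys differed among themselves. DU replicate 6 had 91.6 CPM of Pdgfrb and 116 CPM of Tagln but 12.5 CPM of Myh11, 12.7 CPM of Myl9 and 0.849 CPM of Cnn1, the lowest DU values of the last 3. That library also stood apart in its tubule transcripts, with proximal tubule markers summing to 1647 CPM, where the other 46 libraries had at least 6366, and collecting duct markers to 157 CPM, where the others had at least 825. Fibroblast markers summed to 1839 CPM in DU replicate 6, the highest of all libraries, with DU replicate 5 next at 1101 CPM. Its macrophage markers summed to 1369 CPM, under the 1539 CPM of DU replicate 5. The part of these markers in its values was not tested. Leaving DU replicate 6 out, DU was still called for 0 genes, with Myh11 at -0.47 (adjusted p = 0.243 by edgeR). DU replicate 1 was under every Ta kidney for 10 of the 10 genes, while DU replicates 4 and 8 were under every Ta kidney for 0.

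**Figure D3:**
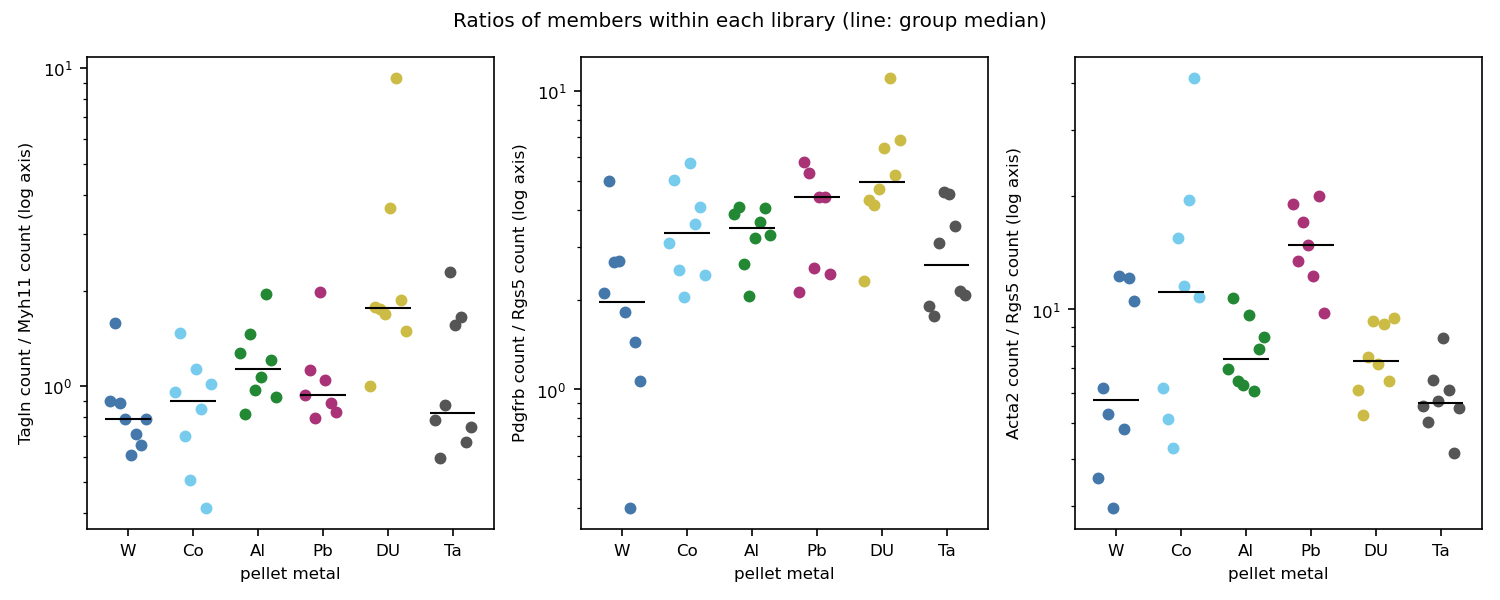
Ratios of raw counts within each library on log axes, 1 point per kidney with a line at the group median, by pellet metal. Acta2 over Rgs5 lies at 9.80 to 20.1 in Pb kidneys, above all Ta kidneys, and Tagln over Myh11 has a median of 1.76 in DU kidneys, with DU replicate 6 at 9.27.

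The balance between genes within a library also differed between groups, which does not depend on library scaling. The Acta2 count was 9.80, 14.9 and 20.1 times the Rgs5 count (lowest, median, highest) in Pb kidneys, and at most 8.40 times it in Ta kidneys, where the median was 5.62. It was 4.28, 11.2 and 41.2 times the Rgs5 count in Co kidneys, 2.97, 5.74 and 12.3 times in W, 6.08, 7.40 and 10.7 times in Al, and 5.24, 7.31 and 9.49 times in DU kidneys. The highest ratio, in Co replicate 7, rests on an Rgs5 count of 10, the lowest of all libraries (10 to 472, median 204). In Pb kidneys the Rgs5 counts were 26 to 50, so these ratios are imprecise. Rgs5 was thus lower relative to Acta2 in all Pb kidneys than in all Ta kidneys. Tagln over Myh11 was 1.00, 1.76 and 9.27 in DU kidneys, against 0.594, 0.826 and 2.29 in Ta kidneys, and 0.793 to 1.98 in Pb kidneys. These ratios were picked after the values were seen and were not tested, and since genes differ in length only their differences between groups can be read.

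Within W, Co and Al kidneys, mean levels of most of the 10 genes were higher in replicates 1 to 4 of the labels than in replicates 5 to 8. Pdgfrb was at 20.6 to 33.1 CPM in W replicates 1 to 4, within or near the Ta range, and at 2.96 to 4.76 CPM in W replicates 5 to 8. Co replicates 1 to 4 had 6.99 to 37.5 CPM and Co replicates 5 to 8 had 2.01 to 11.7 CPM. In Al kidneys replicates 1 to 4 had 8.21 to 27.5 CPM and replicates 5 to 8 had 5.58 to 13.0 CPM, so both metals overlapped across the split. Ta kidneys overlapped too, with 23.7 to 72.0 CPM in replicates 1 to 4 and 24.7 to 42.5 CPM in replicates 5 to 8. Rgs5 averaged 9.25 ± 1.79 CPM in W replicates 1 to 4 and 4.13 ± 2.74 CPM in W replicates 5 to 8 (SD, n = 4 each), and Acta2 40.3 ± 11.5 and 33.9 ± 6.83 CPM. In Co kidneys Rgs5 averaged 7.10 ± 2.96 and 1.92 ± 1.97 CPM in the same ranges, and in Al kidneys 6.88 ± 3.89 and 2.47 ± 0.708 CPM (SD, n = 4 each). Acta2 averaged 46.9 ± 20.9 and 19.7 ± 6.33 CPM in Al kidneys, and Eln was at 7.30 to 17.0 CPM and 0.800 to 4.81 CPM in Co kidneys, with no overlap. Acta2 did overlap in Co kidneys, at 29.5 to 66.0 CPM and 10.2 to 52.0 CPM. Single kidneys crossed the split. Co replicate 8 had 52.0 CPM of Acta2, 55.2 of Tagln and 54.4 of Myh11, while Al replicate 2 had 21.5 CPM of Acta2. The mean of Cnn1 in W kidneys ran the other way, at 2.20 ± 1.34 CPM in replicates 1 to 4 and 2.60 ± 1.10 CPM in replicates 5 to 8. So did most genes in DU kidneys, all but Myh11 and Cnn1, with Pdgfrb at 33.9 ± 11.8 and 67.7 ± 18.8 CPM in the same ranges (SD, n = 4 each).

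**Figure D4:**
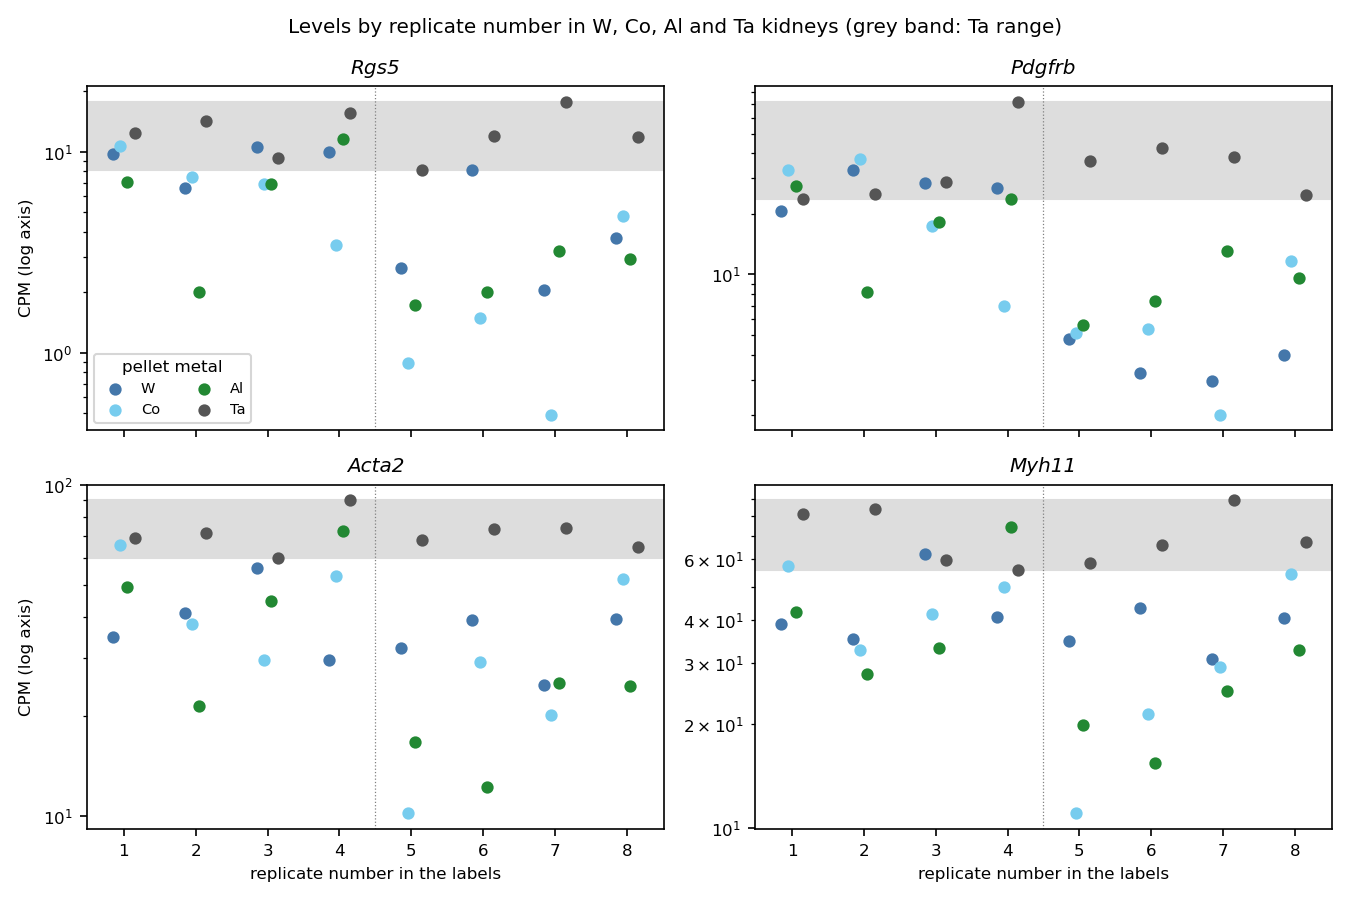
CPM on a log axis of Rgs5, Pdgfrb, Acta2 and Myh11 against the replicate number of the labels in W, Co, Al and Ta kidneys, with the Ta range as a grey band and a dotted line between numbers 4 and 5. Pdgfrb points of W sit at 20.6 to 33.1 CPM left of the line and at 2.96 to 4.76 CPM right of it, while Ta points lie in the band on both sides.

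Fitted within replicate numbers 1 to 4 alone, edgeR called 0 genes lower for W (0% of all genes), 1 for Co (0.940%), 0 for Al (3.27%), 9 for Pb (27.3%) and 0 for DU (3.33%). The Co call was Speg (-0.88, adjusted p = 0.0275). Within numbers 5 to 8 the counts were 5 for W (1.64% of all genes), 9 for Co (11.1%), 7 for Al (6.19%), 8 for Pb (13.7%) and 0 for DU (1.64%). All 10 fold changes were negative in both ranges for W, Co, Al and Pb. The median for W was -0.68 in numbers 1 to 4 and -1.53 in numbers 5 to 8, and that for Pb was -1.60 and -1.53. What the numbers stand for is not given beyond animal number. Markers of other cell types moved with the split in W kidneys. Sums in replicates 1 to 4 and in replicates 5 to 8 were 517 to 708 and 235 to 338 CPM for endothelial markers, 279 to 377 and 159 to 273 CPM for podocyte markers, and 372 to 562 and 206 to 301 CPM for fibroblast markers. They were 595 to 891 and 379 to 553 CPM for macrophage markers, and 15155 to 19581 and 7522 to 12022 CPM for proximal tubule markers. None of these 5 pairs of ranges overlapped in W kidneys. In Co kidneys the podocyte, macrophage and proximal tubule ranges overlapped, and in Al kidneys the endothelial, fibroblast and macrophage ranges did. The part of these markers in the result was not tested.

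Other genes of the same pathways were read from lists that share some genes with each other. As a background for these lists, 29.2% of all tested genes fell in Pb, 12.2% in Co, 12.4% in Al, 0.366% in W and 7.39% in DU kidneys. The shares that rose were 24.5%, 13.6%, 12.8%, 1.42% and 7.89% in the same order. Of 20 further contractile genes, 12 fell and 2 rose in Pb kidneys, 10 fell and 2 rose in Co, 5 fell and 2 rose in Al, 0 changed in W and 2 rose in DU. The 2 that rose were the same in Pb, Co, Al and DU kidneys, Myl6 and Ppp1r14a. Myl6, a light chain that many cell types express, was at 1397 ± 184 CPM in Pb and 547 ± 67.3 CPM in Ta kidneys (SD, n = 7 and 8). Ppp1r14a, an inhibitor of myosin phosphatase, was at 20.3 ± 4.49 and 9.20 ± 1.69 CPM in the same groups. The log2 values of Myl6 and Ppp1r14a were 0.63 and 0.49 in Co, 0.82 and 0.73 in Al, and 0.76 and 0.85 in DU kidneys. Vcl, which anchors actin at adhesions, fell in Pb kidneys (log2 -1.39, SE 0.18, adjusted p = 1.90e-08 by edgeR), in Co (-0.79, SE 0.17, adjusted p = 0.000979) and in Al (-0.69, SE 0.17, adjusted p = 0.00271). Mylk, the kinase that phosphorylates Myl9, was named after its values were seen and fell in Pb kidneys (log2 -1.71, SE 0.28, adjusted p = 1.35e-06). Mylk also fell in Al (-0.84, SE 0.26, adjusted p = 0.0148) and in Co (-0.70, SE 0.26, adjusted p = 0.0419). Median log2 values of this list were -0.79 for Pb, -0.72 for Co, -0.57 for Al, -0.48 for W and 0.07 for DU.

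Of 11 tested genes around SRF and myocardin, 8 fell in Pb kidneys, 4 in Al, 3 in Co, and 0 in W and DU, with a median log2 value of -0.92 for Pb. Mrtfb, which encodes a myocardin-related coactivator of SRF, fell in Pb (log2 -1.55, SE 0.22, adjusted p = 6.39e-08 by edgeR), in Co (-0.88, SE 0.20, adjusted p = 0.00153) and in Al (-0.69, SE 0.20, adjusted p = 0.00935). Its sister gene Mrtfa fell in Pb (log2 -0.47, SE 0.12, adjusted p = 0.00111), in Co (-0.42, SE 0.12, adjusted p = 0.00705) and in Al (-0.31, SE 0.12, adjusted p = 0.0425). Nexn, an actin-binding protein, fell in Pb kidneys (log2 -1.68, SE 0.31, adjusted p = 1.37e-05) and in Al (-1.12, SE 0.29, adjusted p = 0.00416).

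Of 19 further pericyte genes, 12 fell in Pb kidneys, 5 in Al, 3 in Co, and 0 in W and DU, and none rose. The Co count was near the 12.2% of all tested genes that fell there. The median log2 value of this list was -1.38 for Pb and 0.12 for DU. Notch3, the receptor that maintains mural cells, averaged 11.2 ± 1.64 CPM in Pb and 29.3 ± 3.98 CPM in Ta kidneys (SD, n = 7 and 8) and fell (log2 -1.38, SE 0.22, adjusted p = 6.32e-07 by edgeR). Notch3 also fell in Co (-0.95, SE 0.20, adjusted p = 0.000852) and in Al (-0.64, SE 0.20, adjusted p = 0.0163). Agtr1a, an angiotensin II receptor, fell in Pb (log2 -2.20, SE 0.38, adjusted p = 4.21e-06) and in Al (-1.20, SE 0.35, adjusted p = 0.00982). Angpt1, a ligand that pericytes supply to endothelial cells, fell in Pb (log2 -2.25, SE 0.43, adjusted p = 2.12e-05), in Al (-1.24, SE 0.39, adjusted p = 0.0167) and in Co (-1.10, SE 0.39, adjusted p = 0.0334). Of 10 PDGF pathway genes 7 fell and 1 rose in Pb kidneys, 3 fell in Al, 2 in Co and 0 in W and DU. Nrp1, a co-receptor, was at 9.88 ± 2.39 CPM in Pb and 43.3 ± 8.24 CPM in Ta kidneys (SD, n = 7 and 8) and fell (log2 -2.13, SE 0.23, adjusted p = 1.37e-10). Nrp1 also fell in Al (-0.91, SE 0.21, adjusted p = 0.00107) and in Co (-0.90, SE 0.21, adjusted p = 0.00164). Pdgfb, which encodes the ligand of the Pdgfrb receptor, fell in Pb kidneys (log2 -0.63, SE 0.20, adjusted p = 0.00826), while Pdgfa, a related ligand, rose (0.59, SE 0.16, adjusted p = 0.00143), both named after their values were seen. Of 14 elastic fibre genes 10 fell in Pb, 5 in Co, 4 in Al and 0 in W, and in DU 1 rose, Emilin1 (0.86, SE 0.24, adjusted p = 0.0109). Fbln5, which helps assemble elastin, fell in Pb (log2 -2.68, SE 0.56, adjusted p = 7.29e-05), and Fbn1, the main microfibril protein, did too (-2.37, SE 0.49, adjusted p = 7.02e-05). Both also fell in Al (-1.32 and -1.48, adjusted p = 0.0480 and 0.0130 by edgeR), and Fbn1 fell in Co (-1.31, adjusted p = 0.0269).

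**Figure D5:**
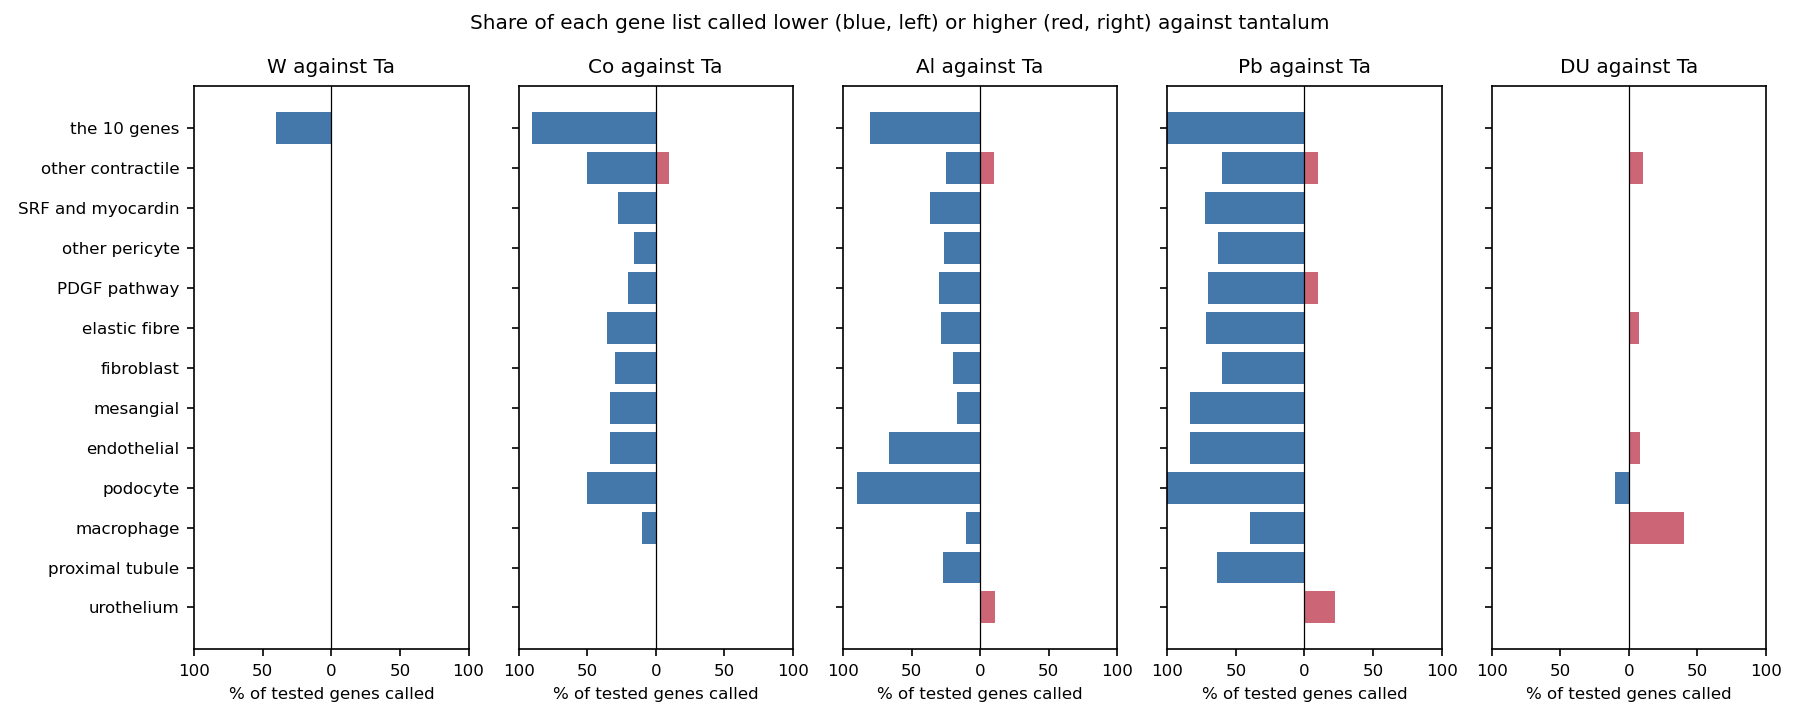
Share of the tested genes of each list called lower (blue, left) or higher (red, right) for each metal over Ta, in %, with the 10 genes in the top row. Blue bars grow across most vessel, glomerular and stromal lists in Pb kidneys, where the 10 genes reach 10 of 10 and podocyte markers 10 of 10. Red bars appear for macrophage markers in DU kidneys (4 of 10). Of all tested genes 29.2% fell in Pb kidneys and 7.89% rose in DU kidneys.

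Markers of neighbouring cell types moved in the same comparisons. Of all tested genes 29.2% fell in Pb kidneys, 12.2% in Co, 12.4% in Al, 0.366% in W and 7.39% in DU, while 24.5% rose in Pb, 12.8% in Al and 7.89% in DU. Endothelial markers fell in 10 of 12 genes in Pb kidneys, 8 in Al, 4 in Co and 0 in W, and in DU 1 rose (Egfl7). Their summed level was 235 to 708 CPM in W, 237 to 656 in Co, 177 to 562 in Al kidneys, 196 to 322 in Pb, 483 to 837 in DU and 512 to 668 in Ta kidneys. Podocyte markers fell in 10 of 10 genes in Pb, 9 in Al, 5 in Co, 0 in W and 1 in DU, with sums of 86.5 to 145 CPM in Pb and 277 to 521 CPM in Ta kidneys. Fibroblast markers fell in 6 of 10 genes in Pb, 3 in Co, 2 in Al and 0 in W and DU, with sums of 128.2 to 249 CPM in Pb, 244 to 1839 in DU and 304 to 1088 in Ta kidneys. Mesangial markers, which include Pdgfrb, fell in 5 of 6 in Pb, 2 in Co, 1 in Al and 0 in W and DU. Macrophage markers fell in 4 of 10 in Pb and 1 each in Co and Al, 0 in W, and rose in 4 of 10 in DU, with sums of 427 to 843 CPM in Pb, 537 to 1539 in DU and 583 to 1756 in Ta kidneys. Proximal tubule markers fell in 7 of 11 in Pb, 3 in Al and 0 in W, Co and DU. Of 7 collecting duct markers 3 rose and 1 fell in Pb, 1 rose in Al, 1 fell in DU and 0 changed in W and Co. Of 7 erythrocyte markers 2 fell in Pb, 4 rose in DU and 0 changed in W, Co and Al. The falls of macrophage markers in Pb, Co and Al kidneys and of erythrocyte markers in Pb kidneys were near the shares of all genes. The part of these cell types in the result was not tested.

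Skeletal muscle transcripts were low. The 13 striated muscle markers in the table summed to 6.46 to 26.2 CPM over all libraries, Mb, Actc1, Myl1, Myh1, Myh2 and Myh4 had a median of 0, and none of the 7 that could be tested fell under any metal, while 2 rose in Pb kidneys (Mylpf and Tnni2). Urothelial markers, which line the renal pelvis, fell in 0 of 9 genes under any metal and rose in 2 in Pb and 1 in Al kidneys. Of all tested genes 24.5% rose in Pb kidneys and 12.8% in Al, so these counts of muscle and urothelial markers were near those shares. Urothelial sums were 333 to 483 CPM in Pb and 209 to 382 CPM in Ta kidneys.

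Ta replicate 4 was the highest Ta kidney for 6 of the 10 genes, and its fibroblast (1088 CPM) and macrophage (1756 CPM) sums were the highest of the Ta group. Without Ta replicates 4, 5 and 6, the Ta kidneys with the highest macrophage sums, a choice made after seeing the data, 0 genes were called for W (0% of all genes lower), 3 for Co (Rgs5, Myh11 and Speg, 5.81%), 4 for Al (Rgs5, Acta2, Myh11 and Speg, 7.61%), 10 for Pb (25.2%) and 0 for DU (7.40%). All 10 fold changes stayed negative in W, Co, Al and Pb.

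The libraries also differed in the balance of transcripts of small and very large proteins. Ribosomal protein genes exceeded genes of very large proteins in mean log2 CPM by 1.78 ± 0.25 in W, 2.19 ± 0.38 in Co, 2.34 ± 0.43 in Al kidneys, 3.12 ± 0.49 in Pb, 2.23 ± 0.33 in DU and 1.39 ± 0.31 in Ta kidneys (SD, n = 8, or 7 for Pb). With that balance as a covariate, 0 genes were called for W (0.00630% of all genes lower), 1 for Co (Tagln, -1.22, adjusted p = 0.0368 by edgeR, 1.83%), 0 for Al (0.580%), 0 for Pb (3.80%) and 0 for DU (0.838%). The fold changes of W, Co, Al and Pb were all still negative, with a Pb median of -1.11. In Pb kidneys the values then ran from -0.25 for Speg (adjusted p = 0.754), -0.42 for Myh11 (adjusted p = 0.580) and -0.52 for Eln (adjusted p = 0.638) to -1.55 for Tagln (adjusted p = 0.0519) and -1.73 for Rgs5 (adjusted p = 0.0864). The balance differed with the metal, so balance and metal cannot be told apart.

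The 10 genes went up and down together across kidneys. Each was correlated over the 47 libraries with the mean standardised log2 CPM of the other 9, at a Pearson r of 0.644 for Cnn1 to 0.921 for Acta2, and of 0.579 to 0.861 after group means were removed. These r values are descriptions, since the libraries share their groups and make-up. Of 13523 other genes with a mean of at least 1 CPM, the most alike in pattern to the mean of the 10 were Rcsd1 (r 0.917, Spearman rho 0.898), Mrc2 (0.917 and 0.904), Aebp1 (0.916 and 0.885) and Ptn (0.916 and 0.910), followed by Cavin1, Mxra8, Col6a2 and Gucy1a1 (r 0.913 to 0.908). Their r within groups was 0.799 for Cavin1 to 0.873 for Mxra8. Gucy1a1, a subunit of the nitric oxide receptor, was also on the pericyte list.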

How the data were processed

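Total RNA of 47 kidneys was sequenced, and the authors deposited raw counts for each gene. Per the submitters' processing notes, the authors used STAR 2.7.2a, the mRatBN7.2 build and featureCounts of Subread 1.6.4, while annotation, strand setting and treatment of reads that fit several genes are not given in the sources used here. Left out were 29 lines naming no gene (0.0317% of counts). Genes that passed filterByExpr (15868) were scaled by TMM in edgeR 4.0.16 (R 4.3.3) and tested by the two-sided quasi-likelihood F test in 1 fit over 6 groups without a block, with Benjamini-Hochberg adjustment per comparison. Log CPM used a prior count of 2. SE is the log2 fold change over the square root of F. The script was tested on simulated data. No library was a copy of another (161 pairs, lowest chi-square per degree of freedom 15.7). The genes and lists were chosen with earlier results of these data known. Named were the 10 genes, up to 4 called genes per list and comparison with the smallest p, and the 8 genes most alike, and some genes are not reported here. Alternatives were other scaling, filters, DESeq2 1.42.0, limma 3.58.1 voom, the replicate number as a block, ranges of replicate numbers, the balance covariate, fits of the groups compared and fits without single libraries, and, added after seeing the data, fits without Ta replicates 4, 5 and 6.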

Additional observations from a re-analysis of the deposited data

Results flagged for a closer look

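Of 60 sets of 1 gene in 1 group, 9 had a kidney whose gap to its nearest neighbour was large for the range of its group. For independent, normally distributed values, chance alone gives about 1 such set in 20. CPM need not be so distributed, and the sets share kidneys and genes that moved together, so that rate is only a rough guide. Ta replicate 4 was the high kidney in 3 of them, with 72.0 CPM of Pdgfrb (next highest 42.5), 89.7 CPM of Acta2 (next 73.9) and 30.6 CPM of Eln (next 19.0). Speg reached 11.4 CPM in Ta replicate 3, with 8.54 CPM next. Al replicate 4 had 74.2 CPM of Myh11 and 5.15 CPM of Cnn1, well over the other Al kidneys (at most 42.3 and 2.57). W replicate 3 had 62.3 CPM of Myh11, with 43.3 CPM next. In Pb kidneys, replicate 3 had 3.47 CPM of Cnn1, with 1.79 CPM next, and replicate 1 had 2.35 CPM of Eln, under a next lowest of 4.99 CPM. The cause of these values was not tested.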

How the results depend on the processing

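The direction of each of the 10 genes in W, Co, Al and Pb kidneys was negative under every setting run. Counts of genes called that moved by over 1.5 times were as follows. For W (4) the count was 1 with no filter, 2 with limma voom, and 0 within replicate numbers 1 to 4, with the balance covariate and without Ta replicates 4, 5 and 6. For Co (9) it was 1 within numbers 1 to 4, 1 with the covariate and 3 without those Ta kidneys. For Al (8) it was 0, 0 and 4 in the same 3 settings, and for Pb (10) it was 0 with the covariate. For DU (0) it was 1 in fits of DU and Ta alone and with limma voom. Without single libraries the ranges were 0 to 4 for W, 6 to 9 for Co, 6 to 9 for Al, 10 for Pb, 0 for DU and 9 to 10 for the joint test. Over all genes, the W count (283) was 117 with no filter, 562 with a strict filter, 166 with upper quartile factors, 756 with DESeq2, 6 within numbers 1 to 4, 455 within numbers 5 to 8, 595 with the 2 ranges of numbers as a term and 1 without those Ta kidneys. With the covariate it was 7 for W, 608 for Co (4089), 430 for Al (3996), 1301 for Pb (8517) and 374 for DU (2424). Within numbers 1 to 4 it was 844 for Co, 1726 for Al and 1549 for DU, within numbers 5 to 8 it was 2251 for Al, 4519 for Pb and 834 for DU, without those Ta kidneys it was 2669 for Co, and with limma voom 4548 for DU. Fits within ranges of numbers used fewer samples. The cause of the other shifts was not tested.

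With the replicate number as a block, DU had 1 call, Myh11 (-0.73, adjusted p = 0.0367 by edgeR), W 4, Co 10, Al 9 and Pb 10. Numbers did not pair the libraries: deviations from group means had a median correlation of 0.0116 in 115 same-number pairs (-0.353 to 0.360), and -0.000744 in 805 other pairs.

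Sign changes occurred only in DU, where no gene was called in the main fit. The main DU values were -0.50 for Rgs5, 0.48 for Pdgfrb and -0.43 for Speg, and nearer 0 for the other genes that changed sign. Within numbers 1 to 4 Pdgfrb was at -0.13, Des at -0.26 and Eln at -0.10, and within numbers 5 to 8 Acta2 was at 0.14. With the covariate Rgs5 was at 0.14, Acta2 at 0.19, Myl9 at 0.13 and Speg at 0.057. Without Ta replicates 4, 5 and 6 Acta2 was at 0.032 and Myl9 at 0.16. Without single libraries Acta2 in DU ranged from -0.117 to 0.0164, above 0 without DU replicate 1 (0.0075), DU replicate 2 (0.0152) or Ta replicate 4 (0.0164).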
